A study of Citrus sinensis with 4 samples.

Results

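Fruit endocarp of the sweet orange (Citrus sinensis) cultivars Dahongtiancheng and Bingtangcheng was compared at 50 days after full bloom, with 1 poly(A) RNA library for each cultivar. These are 2 of the 4 libraries of the series, and the other 2 are the same cultivars at 70 days. All 29036 genes of the deposited tables were considered, and each group is labelled by cultivar, tissue and stage alone, with no treatment. The number of fruits or trees behind a library is not stated in the labels. The libraries held 16253052 fragments for Dahongtiancheng and 14040916 for Bingtangcheng, so that 1 fragment corresponded to 0.0576 and 0.0642 CPM (fragment counts scaled to a shared library size). With 1 library a side, no p-value stands behind any difference below, and a cultivar difference cannot be told apart from a difference between 2 fruit samples. All intervals cover counting error alone, since fragments were counted without molecular identifiers and are not independent.

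The endocarp is the inner layer of the citrus fruit wall, from which the juice sacs grow. Citrus juice is sour because juice sac cells store citrate in their vacuoles, and this storage depends on proton pumps that acidify the vacuole. Cultivars differ in how much acid they store and later lose, and the pair is set up as a high-acid cultivar, Dahongtiancheng, against a low-acid one, Bingtangcheng. Neither the labels nor the tables hold an acid measurement, so this description of the cultivars could not be checked. The files pair gene identifiers with no names, and 0 identifiers matched the 29331 genes of the RefSeq table for the Valencia assembly DVS_A1.0. No gene is therefore given a function here, and the endocarp label could not be checked against marker genes. Genes are given by the identifiers, positions and strands of the files, and their genome build is not given in the sources.

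Most genes lay close to an equal level in both cultivars at 50 days. Of the 16139 genes that passed the floor of 10 fragments and 1 CPM in either library, 84.9% were within 1.5-fold, and the 5th and 95th percentiles of the log2 ratio of Dahongtiancheng to Bingtangcheng were -0.87 and 0.71. A gene was called higher or lower where its ratio was at least 2-fold and the 99% counting interval of the ratio excluded 1. By this rule 440 genes (2.73% of the genes tested) were higher in Dahongtiancheng and 585 (3.62%) were lower, 6.35% in both directions together. Another 114 genes were at least 2-fold apart with an interval that included 1, so a difference was not detectable at this depth.

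Large differences were the minority in both directions, and they were more frequent among the genes higher in Dahongtiancheng. The median fold was 3.17 among the 440 higher genes and 2.85 among the 585 lower ones. Medians and classes of fold include a prior count of 2 fragments, whereas the folds given for single genes below do not. Between 2 and 4-fold lay 284 of the higher and 425 of the lower genes. At least 8-fold differences were counted for 81 higher and 54 lower genes, and at least 16-fold ones for 43 and 21. With this scaling the direction of the excess depended on size, with more lower genes at 2-fold and more higher genes at 8-fold. The excess at 2-fold varied with the scaling. Higher and lower genes numbered 503 and 517 with the medians of 20 level bins removed, and 414 and 660 with total counts.

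**Figure D1:**
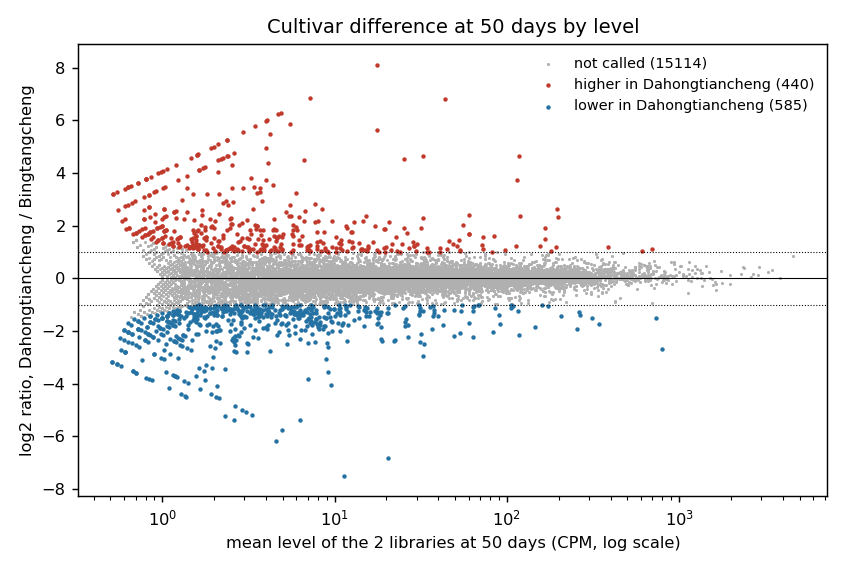
Log2 ratio of Dahongtiancheng to Bingtangcheng at 50 days (vertical axis) against the mean level of the 2 libraries in CPM (horizontal log axis), 1 point per gene tested; dotted lines mark 2-fold. Most of the 440 higher and 585 lower genes sit at low mean levels, and few points lie outside the dotted lines above 50 CPM.

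The genes that differed were mostly weakly covered. CPM is not divided by gene length, so the classes that follow describe how many fragments a gene received, not how many transcripts. Of genes with a mean under 2 CPM 26.6% were called, against 15.9% between 2 and 5 CPM, 5.67% between 5 and 20 CPM, 1.57% between 20 and 50 CPM, 1.21% between 50 and 200 CPM and 1.36% over 200 CPM. A gene could pass the floor through either library alone, so genes with a mean under 1 CPM entered only with unequal levels. The share under 2 CPM is therefore partly set by the floor. In counts, 667 of the 1025 genes had a mean under 5 CPM and 58 had one over 50 CPM, 28 of them higher and 30 lower in Dahongtiancheng. The median log2 ratio moved with the level as well, from -0.14 under 2 CPM to 0.09 over 200 CPM.

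The spread of the ratio over genes was wider than counting error in every class. Under 2 CPM the robust standard deviation of the log2 ratio was 0.97, against a median counting error of 0.47. The spread in that class is partly set by the floor, which a gene could pass through 1 library alone. Between 50 and 200 CPM the standard deviation and the counting error were 0.17 and 0.06, and over 200 CPM 0.21 and 0.03. Counting intervals of well-covered genes are therefore far narrower than the ordinary distance between these 2 libraries, and a narrow interval in what follows does not measure the spread between fruit samples.

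**Figure D2:**
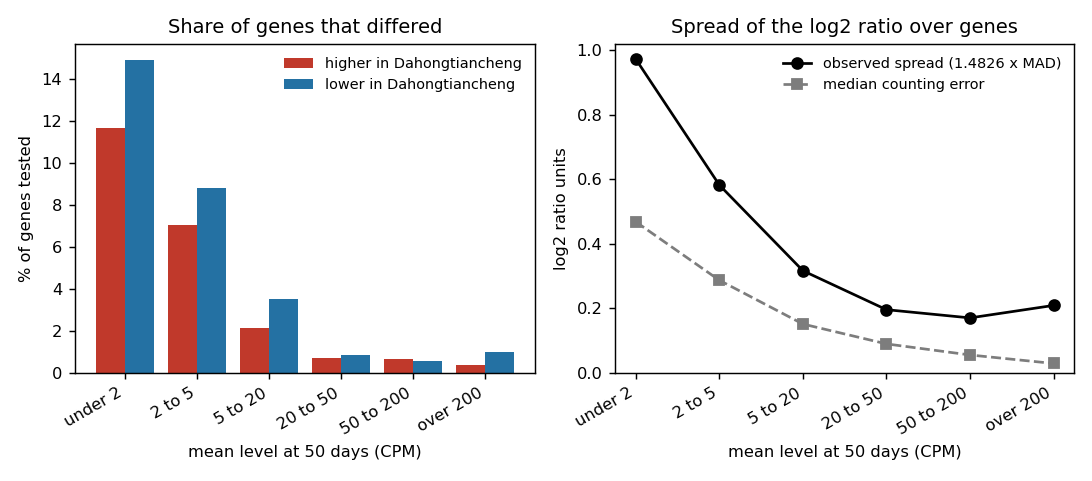
Left, the percentage of genes tested that were called higher (red) or lower (blue) in Dahongtiancheng, by class of mean CPM at 50 days. Right, the robust standard deviation of the log2 ratio over the genes of each class (black) and the median counting error of the ratio (grey), which lies below it in all 6 classes.

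The strongest ratios belonged to genes with fragments in 1 cultivar and few or none in the other. Citrus_newGene_2183 (unplaced sequence, 72697362 to 72699710, plus strand) was covered by 615 fragments in Dahongtiancheng and by 0 in Bingtangcheng, or 35.4 CPM against a limit of 0.193 CPM that a count of 0 allows. Its level was at least 184-fold higher in Dahongtiancheng, computed against 3 fragments without the counting error of the 615. The 95% exact interval, which includes that error, started lower, at 149. At 70 days it had 56 fragments and 1, and the higher library was the same cultivar.

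Cs2g10375 (chromosome 2, 7701317 to 7702242, plus strand) was covered by 251 fragments in Dahongtiancheng against 0, at least 75.0-fold higher by the same computation, with an interval from 60.6. It was nearly absent at 70 days, with 0 and 1 fragments, so the 50-day Dahongtiancheng library stood alone among the 4. In the other direction, orange1.1t02290 (unplaced sequence, 34428020 to 34428436, minus strand) reached 22.8 CPM in Bingtangcheng at 50 days and 44.9 CPM at 70 days, with a count of 0 in Dahongtiancheng at both stages. Citrus_newGene_43 (chromosome 1, 20319063 to 20324426, plus strand) stood at 0.230 CPM in Dahongtiancheng against 40.4 CPM at 50 days, and at 0.466 against 34.0 CPM at 70 days. Both genes were thus low in the Dahongtiancheng libraries and high in the Bingtangcheng libraries without overlap.

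A stricter pattern, set after the values were known, asked for at least 20 fragments in 1 cultivar and 0 in the other. At 50 days 32 genes were on in Dahongtiancheng alone and 15 in Bingtangcheng alone. Of the 32, 18 were Cs genes, 4 orange1.1t and 10 Citrus_newGene, after the form of their identifiers, and the median in the library that was on was 53 fragments. Of the 15, 10 were Cs genes, 3 orange1.1t and 2 Citrus_newGene, with a median of 34 fragments. The 16139 genes tested held 13505 Cs, 2170 orange1.1t and 464 Citrus_newGene. Citrus_newGene models were thus a larger part of both lists than of the genes tested, on 10 and 2 models and without matching by level. At 70 days 6 of the 32 and 5 of the 15 showed the same pattern, while over all genes 80 and 18 did. The cultivar with 0 fragments at 50 days had at least 20 at 70 days for 9 of the 32 and for 2 of the 15. Presence in a single cultivar at 50 days was thus repeated at 70 days for a minority of these genes. The repeat was still more frequent than over all 29036 genes, without matching by level. At 70 days 2 of the 32 and 3 of the 15 had 0 fragments in both libraries. A single fragment also breaks the pattern, as for Citrus_newGene_2183 with 56 against 1.

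Among the called genes, others led when measured by the difference in CPM instead of the ratio. Genes under 2-fold, which the rule does not call, could differ by more CPM. Cs7g03630 (chromosome 7, 1646477 to 1648565, plus strand) had 16568 fragments in Dahongtiancheng and 6829 in Bingtangcheng, or 954 and 438 CPM. Its level was 2.18-fold higher in Dahongtiancheng (95% interval 2.12 to 2.24). In the 70-day libraries it stood at 1344 and 1602 CPM, above both 50-day levels and slightly lower in Dahongtiancheng.

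Cs9g07750 (chromosome 9, 4894869 to 4946315, plus strand) had 14138 and 6205 fragments, a 2.04-fold higher level in Dahongtiancheng (1.98 to 2.11). This gene lay at the edge of the rule, and its log2 ratio was 0.98 with total counts and 0.94 with the medians of level bins removed, both under 2-fold. At 70 days it was at 383 CPM in Dahongtiancheng and 472 in Bingtangcheng. Its position overlaps 3 other gene models of the files, and fragments of overlapping models cannot be separated with certainty.

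Among the called genes, those with the largest CPM excess in Bingtangcheng were Cs5g13890 and Cs8g01810. Cs5g13890 (chromosome 5, 11266098 to 11401674, plus strand) had 3757 fragments in Dahongtiancheng and 21553 in Bingtangcheng, or 216 and 1384 CPM, a 6.40-fold lower level in Dahongtiancheng (6.18 to 6.62). Its model spans 135577 bases for a length of 826 and overlaps 5 other models. At 70 days it was at 229 and 175 CPM, so that the 50-day Bingtangcheng library was the high one among the 4.

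Cs8g01810 (chromosome 8, 508481 to 524556, plus strand) had 6638 and 16977 fragments, or 382 and 1090 CPM, and was 2.85-fold lower in Dahongtiancheng (2.77 to 2.93). At 70 days the cultivars were at 224 and 231 CPM, a ratio of Bingtangcheng to Dahongtiancheng of 1.04 (0.987 to 1.09). Its model overlaps 2 others. None of these 4 genes, which had the largest CPM differences among the genes called at 50 days, met the rule at 70 days.

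Cs1g16150 (chromosome 1, 19246312 to 19254259, plus strand) ranked 7 of 440 by its CPM excess in Dahongtiancheng, and its difference did recur. At 50 days it was covered by 3707 fragments in Dahongtiancheng and by 250 in Bingtangcheng, or 62.4 and 4.69 CPM per kilobase of its length of 3421, a 13.3-fold higher level (95% interval 11.7 to 15.2). At 70 days it was at 485 and 77.3 CPM per kilobase, 6.28-fold higher in Dahongtiancheng (6.07 to 6.49). The Bingtangcheng level at 70 days was close to the Dahongtiancheng level at 50 days, and Bingtangcheng was the lower cultivar at both stages.

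**Figure D3:**
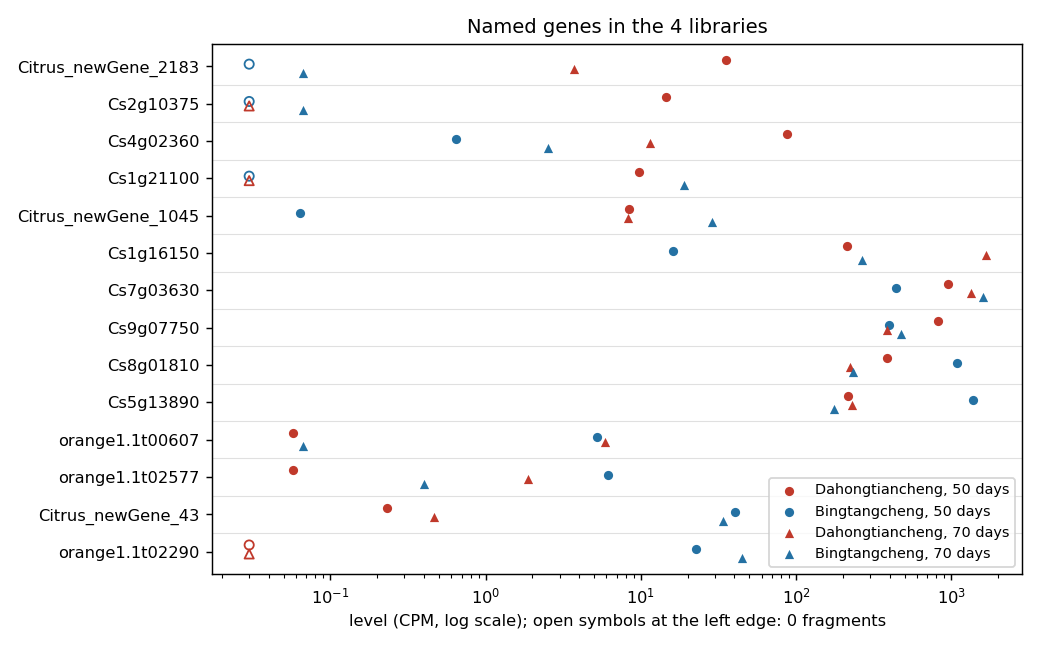
Level in CPM (horizontal log axis) of 14 named genes in the 4 libraries; red is Dahongtiancheng, blue is Bingtangcheng, circles are 50 days and triangles 70 days, with open symbols for 0 fragments. Within each stage the same colour is the higher one for Cs1g16150, Citrus_newGene_43 and orange1.1t02290, whereas the circle of 1 cultivar stands away from the other 3 symbols for Cs5g13890.

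The 70-day libraries were not used to choose the genes, and they show how far the 50-day differences recurred. Over all 15895 genes tested at 70 days 12.8% were called, 7.21% as higher and 5.64% as lower in Dahongtiancheng. Of the 440 genes higher at 50 days 369 passed the floor at 70 days. Among these, 122 (33.1%) were higher in Dahongtiancheng again, 53 (14.4%) were lower and 194 were not called, and the median log2 ratio at 70 days was 0.39. Of the 585 genes lower at 50 days 417 passed the floor at 70 days. Among these, 97 (23.3%) were lower again, 101 (24.2%) were higher and 219 were not called, with a median log2 ratio of 0.00.

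The level of a gene bears on these shares, because weakly covered genes were called more often at 70 days too. Among all genes with a 50-day mean under 5 CPM that passed both floors, 18.4% were higher and 10.5% lower in Dahongtiancheng at 70 days. The genes under 5 CPM that were higher at 50 days were called higher again in 38.2% of cases, 86 of 225, and lower in 36 of 225. Those that were lower at 50 days were lower again in 28.8% and higher in 22.4%. In this class both lists exceeded the values of all genes in both directions, and the excess was larger in the direction of the 50-day difference. From 5 to 50 CPM, where 4.53% of all genes were higher and 4.59% lower at 70 days, the higher list was higher again in 27.6% and lower in 14.7%. The lower list in that class was lower again in 17.9% and higher in 26.8%, so the opposite direction was the more frequent one.

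Over 50 CPM most 50-day differences did not recur, although they recurred more often than the share of all genes. Of the 28 higher genes 4 were higher again, 0 were lower and 24 were not called at 70 days. Of the 30 lower genes 4 were lower again, 7 were higher and 19 were not called. Among all genes over 50 CPM 1.93% were higher and 4.02% lower in Dahongtiancheng at 70 days. The higher list was higher again in 14.3% and the lower list lower again in 13.3%. The lower list was also higher in 23.3%, so the opposite direction was its more frequent one.

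Recurrence was more frequent for large differences. Of the genes at least 8-fold higher at 50 days 36 of the 60 tested at 70 days were higher again and 9 were lower. For those at least 8-fold lower, 17 of 32 were lower again and 7 were higher. In the range from 2 to 4-fold, 57 of 246 higher genes and 66 of 331 lower genes recurred, while 36 and 76 were called the opposite way. Among all 15342 genes that passed both floors, 5.99% were higher and 5.38% lower in Dahongtiancheng at 70 days. Those shares vary with the level, and the fold classes were not split by level, so size and level were not separated.

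**Figure D4:**
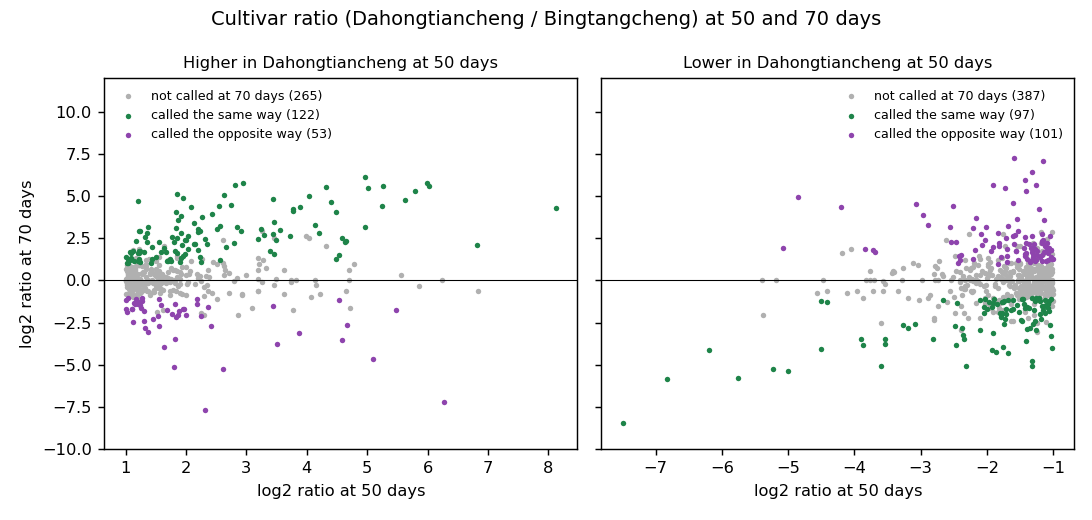
Log2 ratio of Dahongtiancheng to Bingtangcheng at 70 days (vertical axis) against that at 50 days (horizontal axis) for the 440 higher genes (left) and the 585 lower genes (right), 1 point per gene. Green points were called the same way at 70 days (122 and 97), purple points the opposite way (53 and 101), and grey points were not called or did not pass the floor.

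Recurring in the same direction with the largest 50-day ratio were Citrus_newGene_2183 and Cs4g02360 among the higher genes, and orange1.1t02290 and Citrus_newGene_43 among the lower ones. Cs4g02360 (chromosome 4, 1038805 to 1061658, plus strand) was covered at 50 days by 1509 fragments in Dahongtiancheng against 10, 135-fold higher (73.4 to 283), and at 70 days by 173 against 38, 4.54-fold higher (3.18 to 6.63). Its model overlaps 2 others. The size of this difference was much smaller at 70 days, while its kept direction follows from the way the gene was chosen.

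Called in opposite directions at the 2 stages, with the largest 50-day ratios among such genes, were a further 4 genes. Cs1g21100 (chromosome 1, 24050431 to 24052317, minus strand) stood at 9.73 CPM in Dahongtiancheng at 50 days, with 0 fragments in Bingtangcheng, while at 70 days it had 0 fragments in Dahongtiancheng and 19.0 CPM in Bingtangcheng. Citrus_newGene_1045 (chromosome 5, 184750 to 185959, minus strand; 1 overlapping model) was covered by 146 fragments in Dahongtiancheng against 1 at 50 days, then by 124 against 427 at 70 days. Its Dahongtiancheng level was nearly equal at both stages, 8.41 and 8.26 CPM, and the Bingtangcheng level was the one that differed.

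The gene orange1.1t02577 (unplaced sequence, 39391359 to 39393770, minus strand) was covered at 50 days by 1 fragment in Dahongtiancheng against 95, 106-fold lower (18.6 to 4227). At 70 days it had 28 and 6, 4.65-fold higher in Dahongtiancheng (1.89 to 13.7). For orange1.1t00607 (unplaced sequence, 6988034 to 6989803, minus strand) the levels were 0.0576 and 5.20 CPM at 50 days, then 5.86 and 0.0668 CPM at 70 days, so the cultivars had changed places.

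Summed over the genes, the lists held about 1% of the fragments. The 440 higher genes took 1.07% of the Dahongtiancheng fragments at 50 days (exact 95% binomial interval 1.07 to 1.08) and 0.384% (0.380 to 0.387) in Bingtangcheng, a gap that the choice of genes fixes. At 70 days the same genes took 1.82% (1.81 to 1.83) and 1.24% (1.24 to 1.25), with a summed CPM 1.43-fold higher in Dahongtiancheng.

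The 585 lower genes at 50 days took 0.444% (0.441 to 0.447) of the fragments in Dahongtiancheng against 1.40% (1.40 to 1.41). At 70 days the order of the sums was turned, with 1.15% (1.14 to 1.15) in Dahongtiancheng against 0.475% (0.471 to 0.478), a summed CPM 2.38-fold higher in Dahongtiancheng. Cs5g03150 and Cs4g05780 contributed most to this turn and were picked out after their values were seen. Fragments of Cs5g03150 numbered 195 in Dahongtiancheng against 625 at 50 days, then 29313 against 4072 at 70 days. Those of Cs4g05780 numbered 1950 against 4707, then 24958 against 4108. Without these 2 genes the sum was 1.88-fold higher in Dahongtiancheng at 70 days. Over only the 417 genes of the list that passed the floor at 70 days, the median log2 ratio was -0.004.

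A gene could pass the floor at 50 days through its higher library alone, so each list was open to genes with a high count in that 1 library, and the medians that follow describe the lists without a test. For the 585 lower genes the median log2 CPM was 0.70 in Dahongtiancheng against 2.23 at 50 days, then 0.79 against 0.90 at 70 days. The 440 higher genes had medians of 2.24 and 0.25 at 50 days and of 2.06 and 1.52 at 70 days.

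Features that the rule did not use were compared with the share of 6.35% over all genes tested. By identifier form, 18.8% of the 464 Citrus_newGene models tested were called, 44 higher and 43 lower, against 5.92% of the Cs genes and 6.36% of the orange1.1t genes. The Citrus_newGene models were also weakly covered, with a median of 3.45 CPM against 25.3 CPM for Cs genes. Within the class under 2 CPM the shares were 33.1% for Citrus_newGene and 27.1% for Cs, and from 5 to 20 CPM they were 6.19% and 5.64%. From 2 to 5 CPM they were 18.4% and 15.8%, and from 20 to 50 CPM 7.14%, or 3 of 42 models, and 1.58%. Taken as a ratio, the distance between the forms was smaller than over all genes in the 3 classes under 20 CPM and wider, on 3 called models, in the class above.

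Short genes were called more often than long ones. The share was 12.2% for lengths over 300 and up to 600 bases and 2.99% for lengths over 2400 bases, and the short genes had fewer fragments (median 5.61 against 43.8 CPM). From 5 to 20 CPM the shares were 9.02% and 3.40%, so the order by length was also present within this class. Coverage still differed inside it, with medians of 8.80 CPM for the short and 12.3 CPM for the long genes. Length and coverage were therefore not separated. Chromosomes ranged from 4.83% called on chromosome 7 to 7.12% on chromosome 1, strands from 6.32% to 6.38%, and models that overlap another were called in 6.16%. Chromosome 7 lay farthest from the share over all genes.

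Along the chromosomes 388 higher and 509 lower genes had no adjacent tested gene called the same way. With 6.35% of genes called, most called genes would stand alone in a random order too. These numbers therefore say little about placing. Among 16129 pairs of adjacent genes tested, 67 pairs differed in the same direction and fewer, 43, in opposite directions. Over all genes tested 2.73% were higher and 3.62% lower, and the number of pairs these shares alone would give was not computed. Pairs among the 2265 genes tested on unplaced sequence are included, although their place along the chromosomes is not known. At least 3 adjacent tested genes with the same direction were found in 5 places, 2 of them higher and 3 lower in Dahongtiancheng. Models below the floor could lie between such genes. The longest run was 4 genes on chromosome 9 (13001075 to 13090345), where the 4 genes together had 389 fragments in Dahongtiancheng against 1681 at 50 days. At 70 days the sums were 859 and 584, and only 1 of the 4 genes was called, again as lower.

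On chromosome 4 (19873388 to 19921861) 3 adjacent tested genes on the minus strand were higher in Dahongtiancheng, with 108, 42 and 190 fragments against 5, 3 and 16 in Bingtangcheng. Their span also holds 1 model below the floor. At 70 days the same genes had 107, 63 and 137 fragments in Dahongtiancheng and 106, 49 and 148 in Bingtangcheng. The 50-day Bingtangcheng library was thus low for all 3 genes, and the other 3 libraries were near each other.

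On chromosome 3 (22621513 to 22639726) the 3 genes of a run together had 5770 fragments in Dahongtiancheng against 1029 at 50 days, nearly all of them in the middle gene with 5712 and 1020. At 70 days that gene had 6493 and 5330 fragments. In the run on chromosome 2 (26045916 to 26068032) the 3 genes had log2 ratios from -2.39 to -1.83 at 50 days and from -2.23 to -0.43 at 70 days. None of the 3 met the rule at 70 days, when they had 39, 3 and 0 fragments in Dahongtiancheng against 53, 12 and 7. The run on chromosome 5 (5473723 to 5508433) counted 527 fragments against 1515 at 50 days, then 273 against 114 at 70 days. The turned order of the sums was mostly that of Citrus_newGene_1051, with 493 against 1430, then 260 against 94. It was the only gene of this run called at 70 days. Cs5g08380 stayed lower, with 7 against 19 fragments, and Cs5g08360 had 6 against 1.

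**Figure D5:**
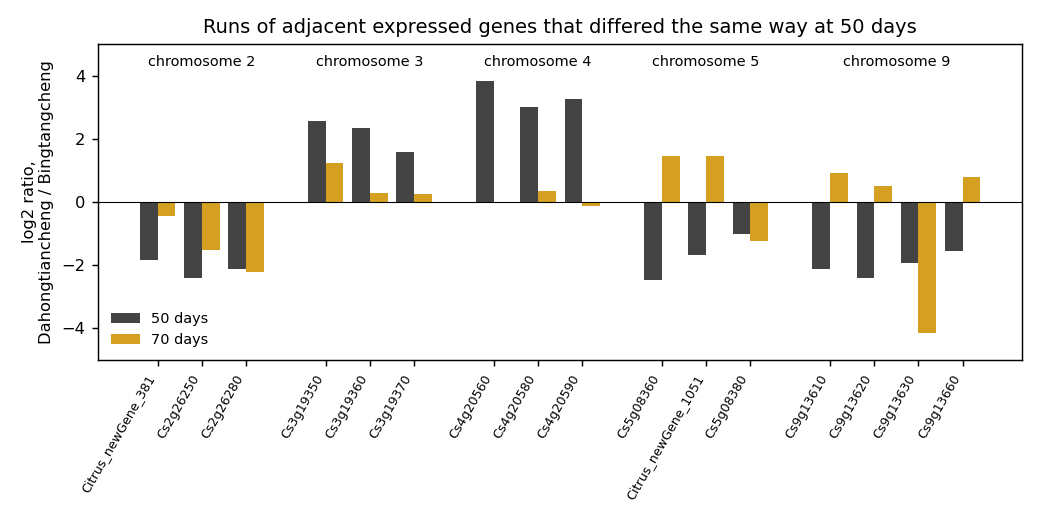
Log2 ratio of Dahongtiancheng to Bingtangcheng at 50 days (dark bars) and 70 days (yellow bars) for the 16 genes in 5 runs of adjacent tested genes that were called the same way at 50 days. The dark bars of a run share a direction by the choice of the runs. The yellow bars keep it on chromosomes 2 and 3, although those of Cs3g19360 and Cs3g19370 are small (0.28 and 0.24). On chromosome 4 they lie between -0.11 and 0.35, and on chromosomes 5 and 9 they turn for most genes.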

How the data were processed

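RNA of frozen endocarp was extracted with Trizol and enriched for poly(A) mRNA, per the labels' protocols; the sources do not give aligner, counter, build, annotation or strandedness. Each deposited table holds raw fragment counts, a scaled count and FPKM, per the file headers. The scaled count is a signal that the authors normalized: for over 92.0% of detected genes it is the raw value multiplied by a constant of its library, within 1%. It was used in no result. The deposited FPKM served as an alternative, with 0.1 added. A repeated header line was skipped.

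Counts were normalized with TMM factors over all 4 libraries (edgeR 4.0.16, R 4.3.3): 1.07 and 1.11 for Dahongtiancheng and Bingtangcheng at 50 days, and 0.927 and 0.910 at 70 days. Log2 ratios used a prior count of 2, and fold classes and rankings by ratio were taken from them. Folds of single genes are ratios of CPM without a prior count. The measures can therefore differ where fragments are few. Ratios carry exact conditional (Clopper-Pearson) counting intervals (SciPy 1.17.1). The size rule was checked on simulated data. No test was run, since each group has 1 library. Alternatives were DESeq2 1.42.0 size factors, other scalings, floors, folds and intervals.

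Genes were named by rule: per direction the 2 with the largest ratio, the 2 with the largest CPM difference, and the 2 with the largest ratio called the same and the opposite way at 70 days, plus Cs1g16150. Others are marked as picked after their values were seen. Rules and lists were chosen with earlier results of these data known. Gene lists defined on descriptions (citrate metabolism, proton pumps, sugar metabolism, and seed, peel and vascular markers) could not be filled, because 0 identifiers matched a reference, and none was tested.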

Additional observations from a re-analysis of the deposited data

Results flagged for a closer look

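The cultivar difference went in opposite directions at 50 and at 70 days for 53 genes that were higher and 101 genes that were lower in Dahongtiancheng at 50 days. With 1 library for each cultivar and stage the difference between the stages was not tested, and any gene called at both stages goes either the same way or the opposite way. The log2 ratios that follow include a prior count of 2, unlike the folds given for single genes above. Among the named genes, the log2 ratio of Dahongtiancheng to Bingtangcheng was 6.28 at 50 days and -7.24 at 70 days for Cs1g21100. It was 5.48 and -1.77 for Citrus_newGene_1045. In the other direction, it was -4.85 and 4.95 for orange1.1t00607, and -5.07 and 1.92 for orange1.1t02577.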

How the results depend on the processing

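No paired analysis was possible because each group has 1 library. The numbers of higher and lower genes were within 1.5-fold of 440 and 585 with DESeq2 size factors, TMM within the pair, total counts, FPKM, no floor and a 95% interval, and lower genes were more numerous in each. They fell to 207 and 275 under a 5 CPM floor, to 194 and 224 where the interval had to exclude 2-fold, and to 156 and 160 with a fold threshold of 4. With the medians of 20 level bins removed they were 503 and 517. Alternatives chosen after seeing the data gave 383 and 522 without overlapping models, and a summed 70-day ratio of 1.88 in place of 2.38 without 2 genes. The share within 2-fold was 92.9%, and 92.5% with FPKM, 88.1% with no floor and 96.4% with a floor of 5 CPM. The share of genes called the same way at 70 days was 27.9% over both directions, 21.9% with no floor and 37.3% at 4-fold. The share of Citrus_newGene models called was 18.8%, and 12.3% with a floor of 5 CPM, 9.48% at 4-fold and 10.3% where the interval had to exclude 2-fold. These choices set how many genes are counted. The log2 ratios of the 14 named genes kept their direction in all 5 scalings tried. Depth limits the calls under 2 CPM, where 34.5% of genes were at least 2-fold apart and 26.6% were called; these shares were equal in each higher class.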
